A study of Mus musculus with 4 samples.

Results

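Cathepsins are the proteases of the lysosome, and cystatin C, encoded by Cst3, is a secreted inhibitor of the cysteine cathepsins. Their transcripts were followed here in mouse embryonic fibroblasts (MEFs), cells cultured from the connective tissue of embryos. The set has 10 listed genes: Ctsb, Ctsc, Ctsh, Ctsk, Ctsl, Ctss and Ctsz for cysteine cathepsins, Ctsd for the aspartic cathepsin D, Ctsa for the serine carboxypeptidase cathepsin A, and Cst3. For each symbol the transcript entry with the highest mean RPKM (reads scaled to transcript length in kilobases and to library size) was taken, which found 9 of the 10 genes among 23005 genes and unnamed entries. No entry of the table was matched to Ctss, which is not analysed here.

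RNA was sequenced from 4 groups of 1 library each: cells labelled Mll1-/- given tumour necrosis factor (TNF), cells labelled Mll1-/- given control solution, wild-type Mll1+/+ cells given TNF, and wild-type cells given control solution. TNF was used at 10 ng/ml for 4 hr. The series' text gives this dose, while the treatment protocol writes the same figure with another unit. Each library was made from cells of 3 separate treatments that were mixed, and all cells were grown in the same serum-containing medium. The protein made from Mll1 (Kmt2a in the annotation) methylates histone H3, and TNF switches on inflammatory genes through NF-kB. With 1 library per group there is no spread between replicates, so every difference below is a description with no test. Intervals are 95% intervals from read counts and cover counting error only.

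The libraries held between 19306506 and 27977248 reads. Kmt2a stood at 1.66 and 2.02 RPKM in the libraries labelled Mll1-/- (with TNF and control), against 2.11 and 1.85 RPKM in the wild-type libraries. The level of the targeted gene thus did not separate the genotypes. The deleted part of the gene is not given in the sources used here, so a value over the whole transcript does not check the label. The origin of the cells (number of embryos, clonal or not) is not given either. TNF treatment was visible in both genotypes, since 3 of 4 response genes chosen as a check in Mll1-/- cells and 4 of 4 in wild-type cells were at least 2-fold higher with TNF. Of 10 fibroblast markers 8 had an entry, and they summed to between 2419 and 2953 RPKM in every library. All 8 reached 1 RPKM in each Mll1-/- library, and 5 did in each wild-type library. Without TNF 6 were at least 2-fold higher in the Mll1-/- library and 0 lower, where 7.11% of all genes at 1 RPKM or more in a library were higher. Some of the 6 reached 1 RPKM only in the Mll1-/- libraries, so this count is not read against that share. Col1a1, the main collagen gene of fibroblasts, had 295 and 337 RPKM in the Mll1-/- libraries with TNF and control, against 92.5 and 105 RPKM in wild type. Decorin (Dcn) was listed at 0 in both wild-type libraries, against 15.2 and 9.16 RPKM in the Mll1-/- libraries with TNF and control. Vim, which made up most of each sum, had 2097 and 2177 RPKM in the Mll1-/- libraries, against 2224 and 2418 RPKM in wild type. The part of these marker differences in the results below was not tested. In bulk RNA, fewer cells of a type and less RNA per cell cannot be told apart.

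Cysteine cathepsins share a papain-like fold and are made as inactive precursors that are cut in the acid lysosome. Most precursors reach it by way of mannose 6-phosphate tags and the receptors Igf2r and M6pr. Some members are endopeptidases that cut inside proteins (Ctsl, and Ctsb in part), whereas others trim ends: Ctsh works mainly as an aminopeptidase, Ctsz as a carboxypeptidase, and Ctsc as a dipeptidyl peptidase that activates granule proteases in leukocytes. Ctsk is the collagen-degrading cathepsin of osteoclasts. Fibroblasts secrete part of their cathepsin L and most of their cystatin C.

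**Figure D1:**
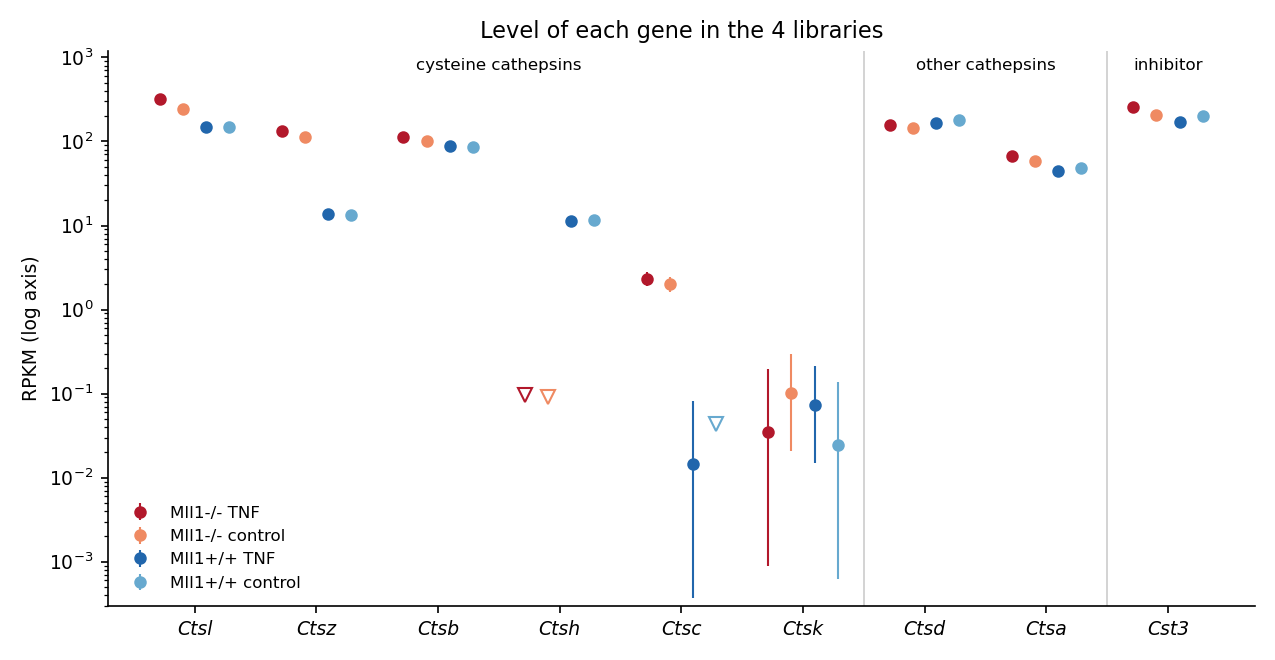
RPKM of each gene on a log axis, with one point per library, for 6 cysteine cathepsins, 2 other cathepsins and the inhibitor gene Cst3. Bars are 95% counting intervals, and open triangles mark a library with 0 reads at the level of 3 reads. Ctsz, Ctsh and Ctsc split by genotype.

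Ctsl, Cst3, Ctsd, Ctsb and Ctsa were abundant in both genotypes, at 44.4 RPKM or more in every library, and Ctsz was so in the Mll1-/- libraries. In the Mll1-/- libraries the order without TNF was Ctsl at 240 RPKM, Cst3 at 207, Ctsd at 145, Ctsz at 112, Ctsb at 102 and Ctsa at 58.6 RPKM, and TNF left this order as it was. Neighbours in that order were separated by their counting intervals, the closest being Ctsz (108 to 116 RPKM) and Ctsb (99.7 to 104 RPKM). In the wild-type control library the order was Cst3 at 203 RPKM, Ctsd at 178, Ctsl at 147, Ctsb at 86.4, Ctsa at 47.7, Ctsz at 13.4 and Ctsh at 11.6 RPKM. There the intervals of Ctsz (12.3 to 14.6 RPKM) and Ctsh (10.6 to 12.7 RPKM) overlapped, as did those of Cst3 (166 to 178 RPKM) and Ctsd (161 to 167 RPKM) in wild-type cells with TNF. Ctsl, ranked 1 in the set in the Mll1-/- libraries and 3 in wild type, lay above 94.7% of all 14386 compared genes in the Mll1-/- control library, and above 91.4% in the wild-type control library.

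Ctsk was hardly read in any library. It had 1 and 3 reads in the Mll1-/- libraries (TNF and control) and 3 and 1 reads in the wild-type libraries, at most 0.101 RPKM, and no ratio is given for it. Of 7 osteoclast markers 5 had an entry. The integrin gene Itgb3 had 6.85 and 4.98 RPKM in the Mll1-/- libraries (TNF and control), against 1.65 and 1.25 RPKM in wild type. The transcription factor gene Nfatc1 had 3.01 and 3.08 RPKM in the Mll1-/- libraries, against 3.65 and 3.85 RPKM in wild type. The other markers stayed under 1 RPKM, and Acp5, the acid phosphatase of osteoclasts, had 0 reads in 3 of the 4 libraries. The summed osteoclast list came to 9.86 and 8.12 RPKM in the Mll1-/- libraries, against 5.42 and 5.25 RPKM in wild type.

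Between genotypes without TNF, Ctsz and Ctsc were higher in the Mll1-/- library and Ctsh was lower by the size rule, a log2 ratio of RPKM + 0.5 of at least 1 in size, which is 2-fold on that scale. That rule was met by 15.1% of the 14386 genes and unnamed entries with at least 1 RPKM in at least 1 library, 7.11% higher and 7.99% lower. Higher genes were 47.1% of those past the rule, and 71.0% when the 20 most abundant entries were left out of the scaling. Of the 9 genes 8 passed that filter, Ctsc only through the Mll1-/- libraries and Ctsh only through the wild-type ones. Both therefore had to differ once they passed, and the count of 3 is not read against the share of all genes.

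Ctsz, the carboxypeptidase cathepsin Z, had 134 and 112 RPKM in the Mll1-/- libraries with TNF and control (3605 and 3143 reads), against 13.7 and 13.4 RPKM in the wild-type libraries (534 and 518 reads). Both Mll1-/- values lay far above both wild-type values. The ratio of reads was 8.38 without TNF (interval 7.63 to 9.21) and 9.78 with TNF (8.93 to 10.7). In the reference annotation Ctsz overlaps Nelfcd, a subunit gene of the negative elongation factor, and without strand information their shared reads cannot be separated. Nelfcd itself had 27.2 and 27 RPKM in the Mll1-/- libraries, against 25.1 and 28.7 RPKM in wild type. The part of shared reads in the Ctsz values was not tested.

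Ctsc, the dipeptidyl peptidase, was low throughout, and nearly all of its reads were in the Mll1-/- libraries. It had 2.3 and 1.99 RPKM in the Mll1-/- libraries (110 reads with TNF and 99 in the control), against 0.0145 RPKM and 0 in the wild-type libraries (1 read with TNF and 0 in the control). Without TNF this was at least 45.6-fold higher in Mll1-/- cells, counting 0 reads as up to 3. With TNF the ratio was 159 on a single wild-type read, with an interval of 28 to 6353.

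Ctsh, the aminopeptidase cathepsin H, went the other way. It had 0 reads in both Mll1-/- libraries, against 510 reads (11.2 RPKM) with TNF and 524 reads (11.6 RPKM) in the control of wild type. A count of 0 allows up to 0.0955 and 0.0918 RPKM in the Mll1-/- libraries with TNF and control. Against that floor of 3 reads, Ctsh was at least 126-fold lower in Mll1-/- cells without TNF and at least 117-fold lower with TNF. In wild-type cells it stood near the middle of all compared genes, above 50.6% of them in the control library.

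Ctsc and Ctsz are known for their abundance in leukocytes, whose markers were mostly low here. Of 16 macrophage and other leukocyte markers 10 had an entry, and between 1 and 3 of them reached 1 RPKM in a library. The list summed to 14.4 and 11.3 RPKM in the Mll1-/- libraries with TNF and control, against 29.7 and 25.4 RPKM in wild type, of which Cd14, a surface receptor for bacterial lipopolysaccharide that fibroblasts also make, gave 11.9 and 9.28 RPKM, against 25.6 and 23.2 RPKM. The macrophage receptor gene Csf1r had 0 and 1 reads in the Mll1-/- libraries, against 3 and 8 reads in wild type. Aif1, another macrophage marker, had 0 and 1 reads in the Mll1-/- libraries and 0 in both wild-type libraries. Others were read more: the mannose receptor gene Mrc1 had 13 and 7 reads in the Mll1-/- libraries, against 227 and 85 in wild type, and Lcp1 had 60 and 89 reads in the Mll1-/- libraries, against 92 and 80 in wild type. Mpeg1 ran the other way, with 5 and 8 reads in the Mll1-/- libraries, against 1 and 3 in wild type. The part of these cells in the results was not tested. Endothelial markers summed to 0.172 and 0.193 RPKM in Mll1-/- libraries, against 0.897 and 0.786 RPKM in wild type, with 0 of 5 measured genes at 1 RPKM. Among 5 measured epithelial markers only the keratin gene Krt19 reached 1 RPKM, at 21.2 and 24.2 RPKM in Mll1-/- libraries and 41.5 and 52.6 RPKM in wild type.

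The stretches of 250 bases before the annotated start of Ctsz and Ctsc, both higher in the Mll1-/- libraries, are shown with that of Ctsd, whose level differed little. They come from a RefSeq table of such stretches on GRCm38.p6, in which 8 of the 10 genes were matched. Capitals mark CACGTG, the E-box that lysosomal regulators of the MiT/TFE family can bind, and GGGCGG, the GC box (CCGCCC on the other strand).
Ctsz: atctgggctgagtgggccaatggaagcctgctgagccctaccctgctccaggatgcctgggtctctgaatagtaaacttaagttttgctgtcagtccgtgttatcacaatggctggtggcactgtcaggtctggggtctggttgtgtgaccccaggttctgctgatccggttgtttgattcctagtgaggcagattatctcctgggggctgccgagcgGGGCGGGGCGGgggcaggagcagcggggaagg
Ctsc: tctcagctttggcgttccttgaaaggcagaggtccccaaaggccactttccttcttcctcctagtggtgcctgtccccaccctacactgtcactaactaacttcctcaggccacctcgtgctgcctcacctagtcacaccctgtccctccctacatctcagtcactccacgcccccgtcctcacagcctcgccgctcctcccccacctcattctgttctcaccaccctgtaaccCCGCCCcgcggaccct
Ctsd: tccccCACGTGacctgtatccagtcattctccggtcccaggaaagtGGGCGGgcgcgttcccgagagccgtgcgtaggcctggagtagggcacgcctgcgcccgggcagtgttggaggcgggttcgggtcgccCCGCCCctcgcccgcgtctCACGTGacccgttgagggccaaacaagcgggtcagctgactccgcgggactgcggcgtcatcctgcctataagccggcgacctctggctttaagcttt
These lie at chr2:174439040-174439289 on the minus strand, chr7:88277835-88278084 on the plus strand and chr7:142387828-142388077 on the minus strand. The Ctsd stretch holds 27 CpG dinucleotides, more than 91.4% of the 32851 stretches of that length in the table, against 7 in Ctsz and 9 in Ctsc, where the median is 6. The high count was particular to Ctsd: the 2 stretches of Ctsa hold 10 and 6, Cst3 holds 8, Ctsl 7, Ctss 4 and Ctsk 0. CACGTG occurs 2 times before Ctsd and not before Ctsz or Ctsc, and 6.02% of all stretches hold it on either strand. Among other members, Ctsl, which was higher in Mll1-/- cells, holds it 1 time, as does 1 of the 2 stretches of Ctsa, and Cst3 does not hold it. GGGCGG was found 2 times before Ctsz (overlapping each other), 1 time before Ctsc and 2 times before Ctsd, and 32.7% of all stretches hold it. These are matches of letters and say nothing of binding.

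The endopeptidase genes Ctsl, Ctsb and Ctsd, the carboxypeptidase gene Ctsa and the inhibitor gene Cst3 differed less between genotypes. Ctsl had 320 and 240 RPKM in the Mll1-/- libraries with TNF and control, against 149 and 147 RPKM in wild type. Its ratio was 1.63 without TNF (interval 1.58 to 1.68), short of the size rule, and 2.15 with TNF (2.09 to 2.21), past it. With TNF the members past the size rule were Ctsz, Ctsc and Ctsl upward and Ctsh downward, where 11.2% of all compared genes were past it, 6.71% higher and 4.50% lower. Ctsc and Ctsh again had to differ once they passed the filter, so this count is likewise not read against those shares.

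Ctsb had 112 and 102 RPKM in the Mll1-/- libraries, against 87.4 and 86.4 RPKM in wild type, a ratio of 1.18 without TNF (1.15 to 1.21) and 1.28 with TNF (1.25 to 1.32). Ctsa, which shields the sialidase Neu1 and the galactosidase Glb1 from breakdown, had 66.6 and 58.6 RPKM in the Mll1-/- libraries, against 44.4 and 47.7 RPKM in wild type. Both genes were higher in each Mll1-/- library than in the wild-type library with the same treatment. Reads of Ctsa and of the overlapping Pltp and Neurl2 cannot be told apart by strand, nor can those of Ctsb and Fdft1. Pltp had 15 and 14.6 RPKM in the Mll1-/- libraries and 22.7 and 26.3 RPKM in wild type, Neurl2 had 3 and 2.2 RPKM in the Mll1-/- libraries and 0.124 and 0.499 RPKM in wild type, and Fdft1 had 35.2 RPKM in both Mll1-/- libraries and 38.9 and 42.6 RPKM in wild type. Pltp and Fdft1 were thus lower in the Mll1-/- libraries, and the scarce Neurl2 was higher there.

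Ctsd, the aspartic endopeptidase that does much of the bulk protein breakdown in lysosomes, had 156 and 145 RPKM in the Mll1-/- libraries with TNF and control, against 164 and 178 RPKM in wild type. The log2 ratio without TNF was -0.29 as deposited, -0.13 with a trend of the ratios with transcript length removed, and 0.01 when the 20 most abundant entries were left out of the scaling, so its direction turned with the scaling. With TNF the log2 ratio was -0.07, and 0.04 without those 20 entries. That scaling moved the median of all genes by 0.28 without TNF and by 0.10 with TNF. No direction is therefore given for Ctsd between the genotypes.

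Cst3, the inhibitor, had 259 and 207 RPKM in the Mll1-/- libraries with TNF and control, against 172 and 203 RPKM in wild type. The control libraries gave a ratio of 1.02 (interval 0.97 to 1.07), and the TNF libraries one of 1.51 (1.44 to 1.58). The log2 ratio without TNF was 0.02 as deposited, 0.32 with the 20 most abundant entries left out of the scaling and 0.37 with the length trend removed. The transcript of Cst3 is short, at 748 bases. Across all genes the median log2 genotype ratio without TNF lay between -0.53 in the shortest and 0.25 in the longest of 10 length classes.

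**Figure D2:**
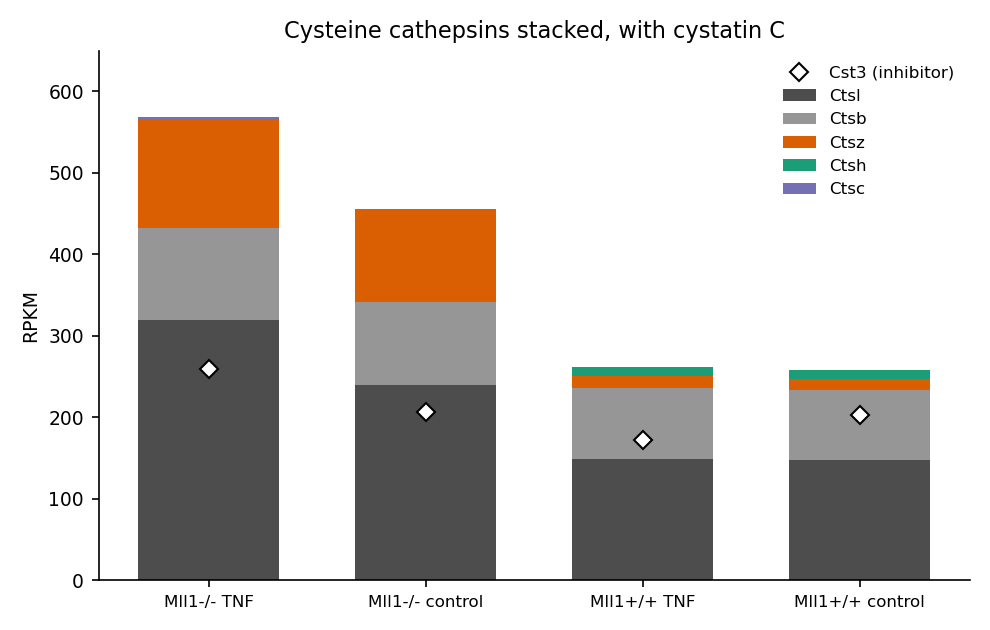
RPKM of the cysteine cathepsins stacked in each library, with Ctsk too low to draw, and RPKM of the inhibitor gene Cst3 as diamonds. The stacks reach 568 and 456 RPKM in the Mll1-/- libraries (TNF and control) and 261 and 259 RPKM in wild type, with a thicker Ctsl and a thicker Ctsz block in the Mll1-/- libraries.

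Summed over the 6 measured cysteine cathepsins, the level was 568 and 456 RPKM in the Mll1-/- libraries with TNF and control, against 261 and 259 RPKM in wild type. Ctsl made up 56.3% and 52.6% of the sum in the Mll1-/- libraries and 57% and 56.9% in wild type, a similar share in all. Ctsz made up 23.6% and 24.7% in the Mll1-/- libraries, against 5.25% and 5.19% in wild type. The share of Ctsb was 19.7% and 22.3% in the Mll1-/- libraries, against 33.5% and 33.4% in wild type, although its own level was not lower. Ctsh gave 4.29% and 4.49% of the sum in wild type. The ratio of this sum to Cst3 was 2.19 and 2.21 in the Mll1-/- libraries, against 1.52 and 1.27 in wild type, so deposited levels of the proteases were higher relative to the inhibitor in both Mll1-/- libraries. The length trend was not removed from these ratios. Its removal moved the log2 genotype ratio without TNF from 0.02 to 0.37 for Cst3, and from 0.70 to 0.85 for Ctsl. These are transcript levels, and neither protein nor activity was measured.

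With TNF, 0 members were past the size rule among those with enough reads to show it. These were 7 genes in Mll1-/- cells, without Ctsh, where 0.848% of all compared genes met the rule, and 7 in wild-type cells, without Ctsc, where 0.577% did. For Ctsh in Mll1-/- cells, Ctsc in wild-type cells and Ctsk in both, a response to TNF was not measurable at this depth. In Mll1-/- cells the counting interval of the TNF ratio lay above 1 for Ctsl, Cst3, Ctsz, Ctsa, Ctsb and Ctsd, and below 1 for 0 of the 7. It lay above 1 for 26.5% and below 1 for 22.2% of all compared genes with whole reads, shares that depend on depth, because more reads give narrower intervals. In wild-type cells it lay below 1 for Cst3, Ctsa and Ctsd and above 1 for 0, where 19.8% of all lay below 1 and 15.8% above.

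**Figure D3:**
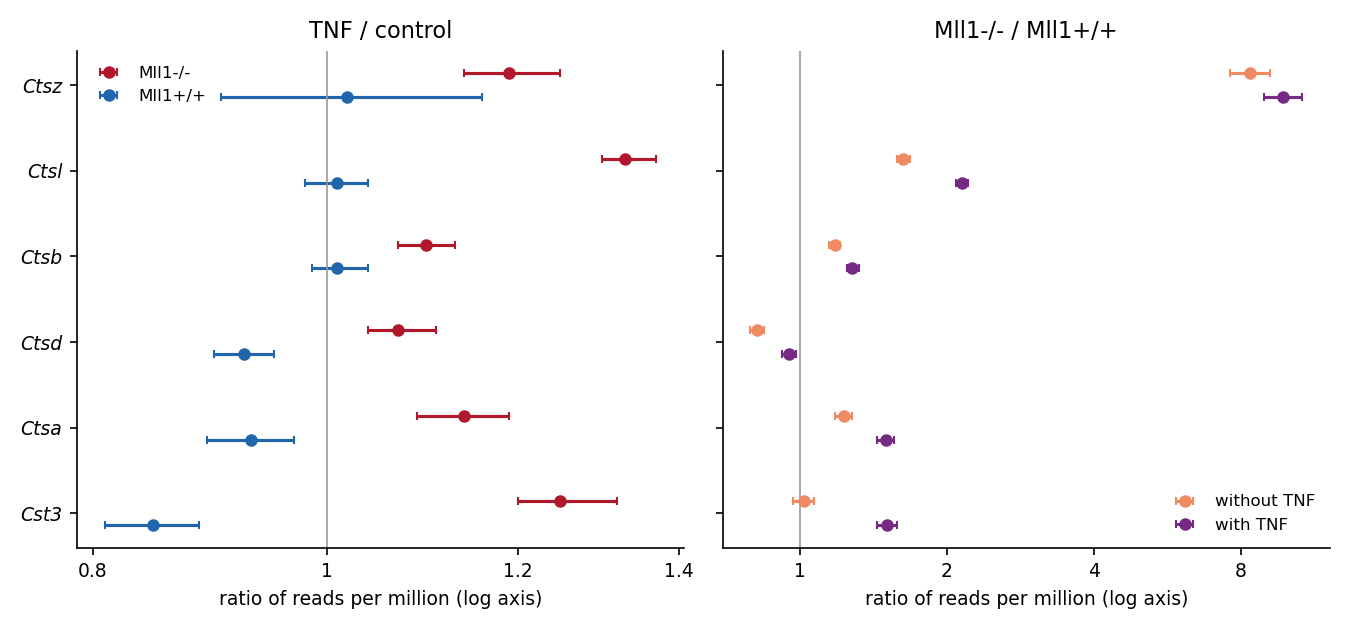
Ratios of depth-scaled reads with 95% counting intervals on log axes for the 6 genes with at least 518 reads in every library. TNF over control is on the left for each genotype, and Mll1-/- over Mll1+/+ on the right for each treatment. Ctsz stands at 8.38 and 9.78 on the right, and on the left every Mll1-/- point lies right of the wild-type point of the same gene.

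Ctsl had the highest TNF ratio of the set in Mll1-/- cells, 1.33 (interval 1.3 to 1.37), against 1.01 (0.98 to 1.04) in wild-type cells. Its log2 ratio in Mll1-/- cells was 0.41 as deposited, 0.34 with the length trend removed and 0.25 with the 20 most abundant entries left out of the scaling, so it stayed above 0 in each. Cst3 had a ratio of 1.25 (1.2 to 1.32) in Mll1-/- cells and 0.847 (0.809 to 0.885) in wild type. Its log2 ratio in Mll1-/- cells was 0.33 as deposited, 0.16 with the 20 most abundant entries left out of the scaling and 0.09 with the length trend removed.

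Ctsz, too, came closer to 0 once length was taken into account. It had a ratio of 1.19 (1.14 to 1.25) in Mll1-/- cells and 1.02 (0.904 to 1.16) in wild type. Its log2 ratio in Mll1-/- cells was 0.25 as deposited and 0.08 with the length trend removed. Ctsa stood at 1.14 (1.09 to 1.19) in Mll1-/- cells and 0.93 (0.892 to 0.969) in wild type. Its log2 ratio in Mll1-/- cells was 0.18 as deposited, and 0.02 with the 20 most abundant entries left out of the scaling. The remaining pair had ratios in Mll1-/- cells of 1.1 (1.07 to 1.13) for Ctsb and 1.07 (1.04 to 1.11) for Ctsd, and with the 20 most abundant entries left out of the scaling, which moved the median of all genes by -0.15, their log2 ratios turned to -0.02 and -0.06. In wild-type cells Ctsb stood at 1.01 (0.986 to 1.04) and Ctsd at 0.924 (0.898 to 0.951). Ctsc in Mll1-/- cells (1.16, interval 0.873 to 1.53) and Ctsh in wild-type cells (0.965, 0.852 to 1.09) had intervals that held 1.

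**Figure D4:**
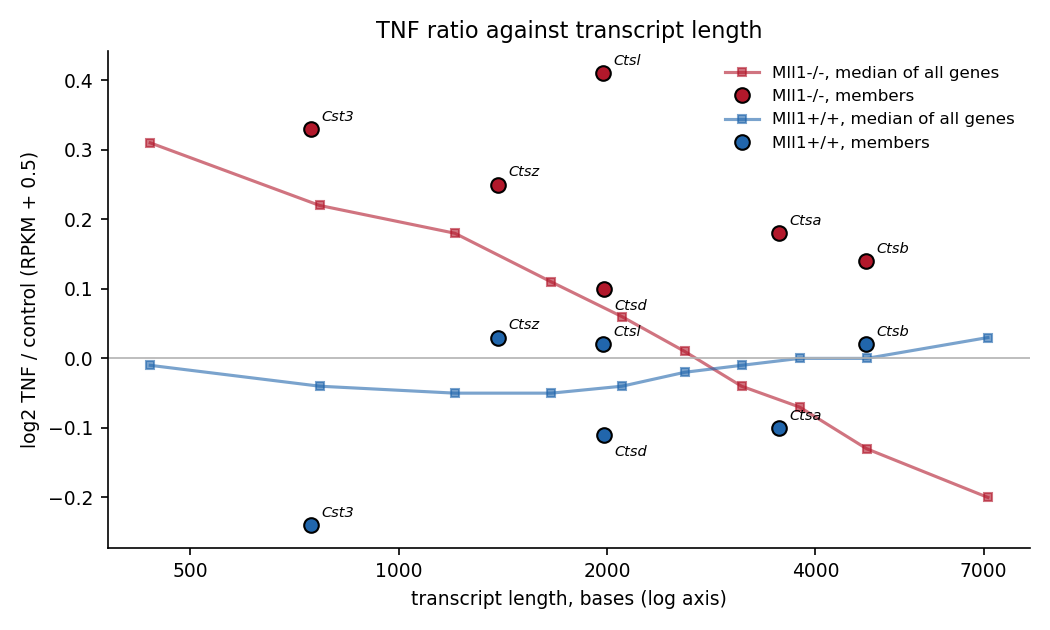
The log2 TNF ratio against transcript length on a log axis, with circles for 6 members in each genotype and lines for the median of all compared genes in 10 length classes. The Mll1-/- line runs between 0.31 and -0.20 and the wild-type line between -0.05 and 0.03. Ctsl, Ctsa and Ctsb lie well above the Mll1-/- line, while Ctsd and Cst3 lie nearer to it.

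The length trend belongs beside these values. In Mll1-/- cells the median log2 TNF ratio of all genes was 0.31 in the shortest of 10 length classes (median 438 bases) and -0.20 in the longest (median 7099 bases), while in wild-type cells the classes lay between -0.05 and 0.03. Ctsa and Ctsb have long transcripts (3547 and 4738 bases), and removal of the trend raised their log2 ratios in Mll1-/- cells, to 0.24 and 0.26. The TNF ratios of Cst3, Ctsz and Ctsd (748, 1393 and 1979 bases) became smaller, Ctsd at 0.03.

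The difference between genotypes in the log2 TNF ratio was past 1 for 0 of the 6 members read in every library at over 3 reads, where 1.18% of all compared genes were past it. From reads, the difference was 0.57 for Cst3 (interval 0.47 to 0.66), 0.40 for Ctsl (0.34 to 0.46), 0.29 for Ctsa (0.20 to 0.37), 0.22 for Ctsd (0.15 to 0.28), 0.22 for Ctsz (0.04 to 0.41) and 0.12 for Ctsb (0.07 to 0.18). All 6 intervals lay above 0, as did those of 25.6% of genes with reads in every library, where 20.3% lay below 0. These shares, too, depend on depth, and each of the 6 members had at least 518 reads in every library. The count of 6 is therefore not read against them. With the length trend removed the differences were 0.31 for Cst3, 0.28 for Ctsl, 0.36 for Ctsa, 0.10 for Ctsd, -0.01 for Ctsz and 0.23 for Ctsb. With the 20 most abundant entries left out of the scaling, that of Ctsb turned to -0.07. The sign therefore held for Cst3, Ctsl, Ctsa and Ctsd in each scaling tried, and turned for Ctsz or Ctsb in one of them.

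Of 13 further cathepsin genes 4 had an entry and 1 passed the filter: Ctsw, a cathepsin of cytotoxic lymphocytes, at 1.93 and 2.34 RPKM in the Mll1-/- libraries with TNF and control, against 0.377 and 0.585 RPKM in wild type. Of 19 further genes for cysteine protease inhibitors 8 had an entry and 1 passed: Cstb, the inhibitor of the cell interior, at 234 and 140 RPKM in the Mll1-/- libraries, against 173 and 169 RPKM in wild type. Its TNF ratio was 1.68 (interval 1.58 to 1.78) in Mll1-/- cells, and in wild type its interval held 1 (0.977 to 1.08). In Mll1-/- cells its log2 ratio was 0.74 as deposited and 0.51 with the length trend removed. Set against Cst3 and Cstb together, the sum of cysteine cathepsins stood at 1.15 and 1.32 times both inhibitors in the Mll1-/- libraries, against 0.76 and 0.70 times in wild type. From these ratios, too, the length trend was not removed. Its removal moved the log2 genotype ratio of Cstb without TNF from -0.27 to 0.07.

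**Figure D5:**
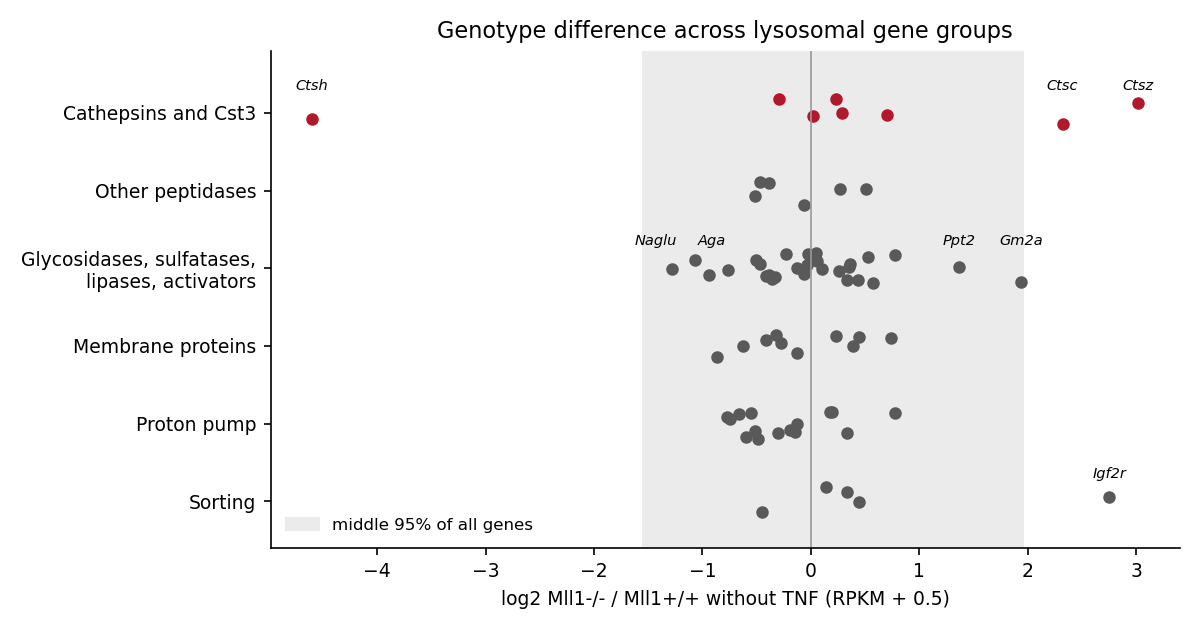
Log2 ratio of Mll1-/- over wild type without TNF for each gene with at least 1 RPKM, in the set described here and in 5 groups of lysosomal genes, with the middle 95% of all genes shaded. Named genes are those past 1 in size. Most genes of the 5 groups lie between -1 and 1, and Ctsh, Ctsc, Ctsz and Igf2r lie outside the shaded range. Ctsc passed the filter only through the Mll1-/- libraries and Ctsh only through the wild-type ones, so their place outside it is not read as a result.

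Genes that act with the cathepsins are given by list, to be read against the 15.1% of all compared genes past the size rule without TNF and the 11.2% with TNF. Among 6 measured genes for processing and other lysosomal peptidases 0 were higher and 0 lower past the size rule without TNF, with a median log2 ratio of -0.22 beside -0.07 over all genes. The highest genotype ratio of the 6 was that of Lgmn, legumain, which cuts precursors and single chains of several cathepsins. Its level was 55.6 and 44.8 RPKM in the Mll1-/- libraries with TNF and control, against 28 and 31.2 RPKM in wild type. Its ratio was 1.43 (1.34 to 1.54) without TNF and 1.99 (1.86 to 2.13) with TNF. Lgmn also had TNF ratios on either side of 1: 1.24 (1.16 to 1.33) in Mll1-/- cells and 0.897 (0.835 to 0.963) in wild type. With TNF 1 gene of the 6 was lower past the size rule, the peptidase gene Cpq, at 2.24 RPKM in the Mll1-/- library against 5.07 RPKM in wild type.

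Of 5 measured genes for mannose 6-phosphate sorting 1 was higher in both genotype comparisons (7.11% of all genes without TNF and 6.71% with TNF) and 0 lower, with median log2 ratios of 0.33 without and 0.29 with TNF. It was Igf2r, the large receptor that carries tagged hydrolases and also clears insulin-like growth factor 2. Igf2r had 26.4 and 29.7 RPKM in the Mll1-/- libraries with TNF and control, against 3.97 and 3.98 RPKM in wild type. The ratio was 7.46 (6.97 to 7.99) without TNF. The other receptor, M6pr, had 98.5 and 91.9 RPKM in the Mll1-/- libraries and 81.6 and 73 RPKM in wild type.

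The enzymes that cathepsin A protects, Neu1, Glb1 and Galns, held 0 past the size rule in any comparison, with a median log2 genotype ratio of 0.09 without TNF and 0.16 with TNF. Of these, Neu1 had the highest genotype ratios, with levels of 9.35 and 8.07 RPKM in the Mll1-/- libraries and 7 and 7.12 RPKM in wild type. Of 28 measured glycosidases, sulfatases, lipases and activators 2 were higher and 2 lower without TNF, a share close to the 15.1% of all compared genes, with a median of -0.03. Those higher were Gm2a, the activator of ganglioside breakdown (8.59 against 1.87 RPKM in Mll1-/- and wild-type control libraries), and the thioesterase gene Ppt2 (10.2 against 3.65 RPKM). Those lower were the heparan sulfate enzyme gene Naglu (1.83 against 5.16 RPKM) and the aspartylglucosaminidase gene Aga (8.69 against 18.7 RPKM). With TNF only Gm2a and Ppt2 were still past it.

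By pattern over the 4 libraries, taken as the distance between log2(RPKM + 0.5) values centred on each gene's mean, the closest pair among the 8 genes was Ctsa and Ctsb at 0.17. Ctsz and Ctsc were each other's nearest member at 0.75, and Ctsh was far from every other member, at 4.39 from the nearest. Among 5877 other named genes averaging at least 10 RPKM, the nearest to Ctsz were the carbonic anhydrase gene Car13, at 22.9 and 20 RPKM in the Mll1-/- libraries with TNF and control against 2.3 and 2.34 RPKM in wild type, and then Akr1c18 and Serpinf1 (distances 0.18, 0.20 and 0.21). For Ctsl they were Vps72, Clta and Mgst1 at 0.04, 0.06 and 0.10. For Ctsh they were Arhgdib, Cldn15 and Efemp1, at 0.24, 0.55 and 0.75. With 4 libraries, such closeness is a description of these values alone.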

How the data were processed

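Per the series' text, cells of 3 treatments were mixed for each library. The deposited values are RPKM, made by the authors from RNA-seq reads, with 1 column per library. The submitters' processing notes name TopHat and DESeq without versions or roles. The sources used here name neither a genome build nor a counting program.

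Of the 27344 entries, 20849 were named through a RefSeq table made on GRCm38.p6 and 102 through GENCODE M21. Whole reads were recovered from the steps of the RPKM values. In 99.99% of entries a transcript length gave whole reads in all 4 libraries within 0.0001 reads, or slightly more at high counts. Entries at 0 in all 4 libraries were counted as recovered. The smallest length that fitted was taken, and multiplied up where the annotated length was much longer. Recovered lengths lay within 10% of the annotated ones for 79.0% of the 20658 entries that had one. Summed entries held 1.667 to 1.768 times each library's total. The recovery and the size rule were run on simulated reads, drawn for each entry at its recovered length and mean level. The simulated reads held no length trend and no reads shared between entries, so that run says nothing of either. Ratios of reads have exact binomial (Clopper-Pearson) 95% intervals, single levels exact Poisson intervals, and differences of log2 ratios normal intervals, all for counting error only. Where 0 reads were listed, up to 3 reads were allowed.

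Log2 ratios used RPKM + 0.5, which understates the change of low genes, over entries with at least 1 RPKM in at least 1 library. The length trend was removed by subtracting the median ratio in 20 bins of length. Other settings tried were pseudocounts of 0.1 and 1, no filter, median-ratio and upper-quartile scaling, scaling without the 20 most abundant entries, summed entries, a 1.5-fold rule and ratios of reads. The members and lists were chosen with earlier results of these data known. All members are described, and from other lists the 2 highest and 2 lowest genes or those past the size rule could be named. Col1a1, Csf1r, Aif1, Mrc1, Lcp1, Mpeg1, Acp5 and M6pr were named after their values were seen. Python 3.11.15, numpy 2.4.6, pandas 2.3.3, scipy 1.17.1 and matplotlib 3.10.9 were used.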

Additional observations from a re-analysis of the deposited data

Results flagged for a closer look

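For Cst3, Ctsa and Ctsd the TNF ratio lay above 1 in Mll1-/- cells and below 1 in wild-type cells, with each counting interval excluding 1. The difference in log2 TNF ratio, Mll1-/- minus wild type, was 0.57 for Cst3, 0.29 for Ctsa and 0.22 for Ctsd. With 1 library per group, this difference was not tested against a spread between replicates. With the length trend removed the differences were 0.31, 0.36 and 0.10, and with the 20 most abundant entries left out of the scaling they were 0.38, 0.10 and 0.03, in the same order of genes. In Mll1-/- cells the log2 TNF ratio itself under the second of these settings was 0.16 for Cst3 and 0.02 for Ctsa, and turned to -0.06 for Ctsd.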

How the results depend on the processing

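The number of members past the size rule was 3 without TNF and 4 with TNF in the genotype comparisons, and 0 in the TNF comparisons and in the difference between genotypes. It was the same under every alternative run except the 1.5-fold rule, which gave 4 and 5 in the genotype comparisons and 0 elsewhere. Of 316 log2 ratios of single members recomputed under an alternative, 251 were counted as unchanged and 65 as moved beyond the counting error. Of the ratios past the size rule, 0 changed sign. The 251 include genotype ratios of Ctsc and Ctsh, whose size depended on the pseudocount. Without TNF the log2 ratio of Ctsc was 2.32 as deposited, 1.58 with a pseudocount of 1 RPKM and 5.51 from reads. That of Ctsh was -4.60, -3.66 and -6.98 in the same order. For these ratios the count of 251 does not show a stable size. The sign of 11 ratios turned under an alternative, none of them past the size rule. Depth limits Ctsk and, in wild-type cells, Ctsc. Leaving out a library was not run, since each group is 1 library. No paired analysis was possible, for the same reason.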

Other observations

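Values of 3 further groups of lysosomal genes follow. Of 10 measured lysosomal membrane proteins 0 were past the size rule in any comparison, and their median log2 genotype ratio was -0.21 without TNF (-0.02 with the length trend removed) beside -0.07 for all genes. The size rule was met by 15.1% of all compared genes between genotypes without TNF and 11.2% with TNF, and by 0.848% with TNF in Mll1-/- and 0.577% in wild-type cells. All 15 listed subunits of the proton pump that acidifies the lysosome were measured, and again 0 were past the size rule in any comparison. Their median log2 genotype ratio was -0.30 without TNF (-0.10 with the length trend removed) and 0.01 with TNF. Their median log2 TNF ratio was 0.14 in Mll1-/- cells (0.09 with the length trend removed) and -0.01 in wild-type cells. Of the MiT/TFE transcription factors, which drive lysosomal genes, 3 were measured and 0 were past the size rule. Tfe3, the most abundant of them, had 20.2 and 19.7 RPKM in the Mll1-/- libraries with TNF and control, against 23.7 and 20.8 RPKM in wild type.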
